A study of Mus musculus with 19 samples.

Results

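The genes described here are 35 genes of the proteasome in mouse: the 14 subunits of the 20S core (Psma1 to Psma7 and Psmb1 to Psmb7), 20 genes of the 19S regulatory particle (Psmc1 to Psmc6 and Psmd1 to Psmd14) and Nfe2l1, the transcription factor that controls their transcription. They were chosen by name from textbook knowledge of the complex, not by their values, though earlier results of these data were known. They are 35 of 55450 annotated genes. All 35 passed the filter on low counts. RNA came from cultured neural progenitor cells (NPCs) of the embryonic mouse cortex, kept in medium with 2 growth factors, FGF2 (20 ng/ml) and EGF (20 ng/ml). The tested cells were from Mettl14 conditional knockout (KO) embryos and the others from wild-type (WT) embryos. Mettl14 is a core part of the complex that writes N6-methyladenosine into mRNA. The labels used here name neither the Cre driver nor the age of the embryos. Ladder libraries, made after a split of the mRNA into 7 length classes that were barcoded one by one, were prepared from 4 KO and 4 WT samples and read as pairs of 75 bases. Standard libraries, without this separation, were made from 3 WT samples and read as single reads of 50 bases. Nanopore sequencing of native RNA and of cDNA, with 2 samples per genotype and chemistry, gave 1 assembly for each pair. The labels do not say whether replicates are separate cultures, so p-values measure the spread between these samples, which may be technical.

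The proteasome is the barrel-shaped protease that degrades proteins marked with ubiquitin. Alpha and beta rings form the 20S core, and the 19S particle, made of a base with a ring of ATPases and a lid, recognises, unfolds and feeds in the substrate. Nfe2l1 is made at the endoplasmic reticulum and is normally degraded by the proteasome. When proteasome activity falls short, it is cut by the protease Ddi2, enters the nucleus and raises transcription of proteasome subunit genes as a pair with a small Maf protein.

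Total estimated counts were 104900000 to 118198000 in KO ladder libraries, 103752000 to 126922000 in WT ladder libraries and 12084500 to 13987900 in standard libraries. Mettl14 itself was at 6.21 to 8.31 CPM (counts scaled to the library total) in KO ladder libraries and 20.6 to 28.4 CPM in WT ladder libraries. The 10 neural progenitor markers summed to 4794 to 5414 CPM in KO and 6580 to 7371 CPM in WT libraries, with 2 lower in KO (Fabp7 and Vim, the most abundant), 2 higher (Nes and Notch1) and a median log2 change of 0.04 over the 10. The 8 neuron markers summed to 210 to 309 CPM in KO and 248 to 356 CPM in WT libraries, with 6 of 7 tested lower in KO. The 8 microglial markers summed to 1.48 to 2.06 CPM in KO and 0.916 to 1.25 CPM in WT libraries, and both that were tested rose (Csf1r and P2ry12). The 6 endothelial markers summed to 4.62 to 5.33 CPM in KO and 3.902 to 4.873 CPM in WT libraries, with Pecam1, Tek and Emcn higher and Kdr lower among 4 tested. The 6 meningeal fibroblast markers summed to 6.43 to 7.94 CPM in KO and 0.465 to 0.761 CPM in WT libraries, and all 5 tested rose. The part of these differences in the results was not tested, and in bulk RNA fewer cells of a type cannot be told apart from less RNA per cell.

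The first comparison asked how the proteasome genes differ between KO and WT cells. With p-values from edgeR's quasi-likelihood test, adjusted over 18687 genes by the method of Benjamini and Hochberg, 3 of the 35 rose in KO cells (Psmc2, Psmd7 and Nfe2l1) and 3 fell (Psmd6, Psmc6 and Psma1). That is 17.1% of the 35 genes, while 53.6% of all genes tested passed, 26.4% higher and 27.2% lower in KO. The median of the absolute log2 change was 0.17 over the 35 genes and 0.46 over all genes tested. Psmc2 and Psmd7 alone, 2 of 35, moved by more than 0.5 on the log2 scale, against 46.6% of all genes tested. The signed median was -0.09 for the 35 genes and -0.03 for all genes. KO and WT libraries did not overlap for 8 of the 35 genes, and for 49% of all genes tested. These are descriptions of a list, and the members share libraries.

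**Figure D1:**
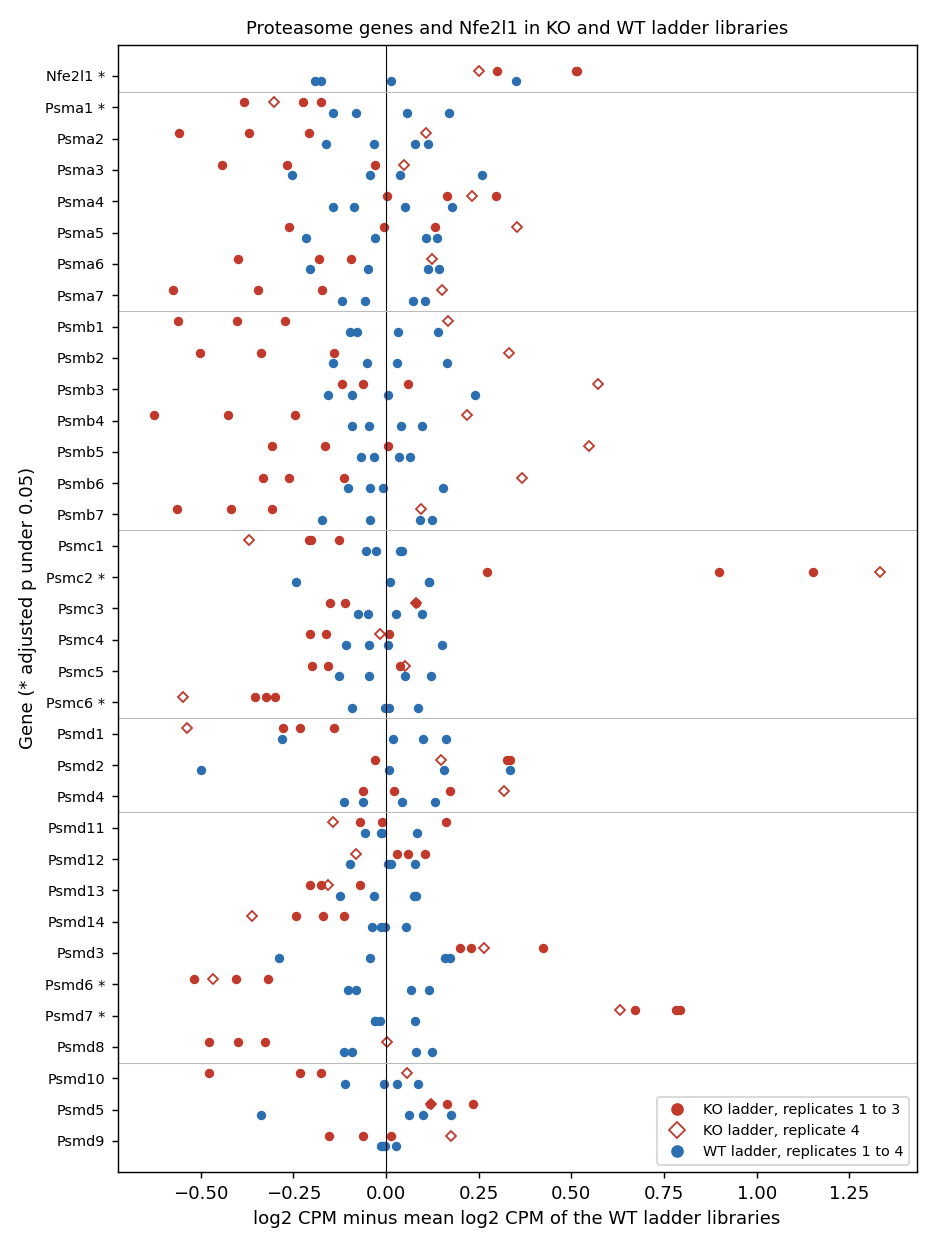
Level of each of the 35 genes in every ladder library, as log2 CPM minus the mean log2 CPM of the WT libraries (horizontal axis), with KO above WT in each row and KO replicate 4 as an open diamond. Psmc2, Psmd7, Psmc6 and Psmd6 separate the genotypes, while for most 20S subunits KO replicate 4 lies to the right of the other 3 KO libraries.

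Nfe2l1 (ENSMUSG00000038615, chr11:96817414-96829968 of GRCm38, minus strand) was at 146, 169, 169 and 141 CPM in the 4 KO libraries and at 104, 119, 105 and 151 CPM in the 4 WT libraries. WT replicate 4 lay above 2 of the KO libraries, so the groups overlap. The log2 fold change was 0.38 (SE 0.14, adjusted p = 0.034 in edgeR's quasi-likelihood test). The call was lost without WT replicate 1 (0.10), 2 (0.052) or 3 (0.086), without KO replicate 2 (0.089) or 3 (0.081), and with protein-coding transcripts alone (0.067).

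Single Nfe2l1 transcripts differed by more than the gene as a whole. Nfe2l1-204 was at 18.98, 29.7, 21.8 and 28.5 CPM in KO libraries, against 0 CPM in all 4 WT libraries. Its estimated counts were 2030 to 3114 in KO libraries and 0 in WT libraries. Its KO mean was 3836-fold above a floor of 3 counts over the WT group, and its adjusted p was 2.5e-05 in edgeR's quasi-likelihood test over 48272 transcripts. The WT value of 0 is an estimate of the quantifier, so this fold is no bound on the true difference. In standard WT libraries Nfe2l1-204 held 36.6 estimated counts in replicate 1 and 0 in replicates 2 and 3.

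Nfe2l1-212 was at 11.8, 16.9, 9.47 and 13.8 CPM in KO libraries, against 0, 0.0788, 0.354 and 0.75 CPM in WT libraries (log2 fold change 5.45, SE 1.06, adjusted p = 0.006 in edgeR). Nfe2l1-210 was at 10.7, 2.53, 14.4 and 6.21 CPM in KO libraries, against 1.54, 0.221, 0.732 and 0.616 CPM in WT libraries (3.44, SE 0.72, adjusted p = 0.0083 in edgeR). Every KO library exceeded every WT library for both. Nfe2l1-202, the most abundant form in ladder libraries, was 0.56 higher (SE 0.15, adjusted p = 0.022 in edgeR), a call lost without WT replicate 1 (0.063) and without KO replicate 2 (0.059) or 3 (0.054).

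Nfe2l1-201 was at 21.5, 23.6, 4.39 and 14.6 CPM in KO libraries, against 28.0, 40.1, 36.2 and 49.1 CPM in WT libraries. The KO libraries were all lower, but the difference of -1.26 (SE 0.47) had an adjusted p of 0.071 in edgeR, which became 0.023 without KO replicate 3 and 0.021 in the DESeq2 test. Nfe2l1-203 was at 0 in KO replicates 1, 2 and 4 and at 17.8 CPM in KO replicate 3, against 9.75, 9.29, 16.3 and 19.4 CPM in WT libraries (adjusted p = 0.56, and 0.000325 without KO replicate 3). Nfe2l1-211 differed by 0.62 (SE 0.25, adjusted p = 0.082 in edgeR and 0.036 in the DESeq2 test). Transcripts of the gene moved unequally, with a Simes adjusted p of 4.5e-08 from edgeR's diffSpliceDGE, a test that 19.6% of 10532 genes passed. Psmb4, Psmc2 and Psmb2 also passed it, with adjusted p of 0.00026, 0.00072 and 0.020.

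As shares of the TPM of the gene (a level that takes transcript length into account), Nfe2l1-204 held 23.5% ± 4.70 in KO libraries and 0% in WT libraries (SD, n = 4 each). Nfe2l1-201 held 7.53% ± 4.09 in KO and 28.4% ± 2.67 in WT libraries. Nfe2l1-212 held 8.04% ± 1.86 in KO and 0.264% ± 0.274 in WT libraries. Nfe2l1-202 held 46.5% ± 2.93 in KO and 51.4% ± 4.88 in WT libraries. In the exact two-sided permutation test, the differences of Nfe2l1-204, Nfe2l1-201 and Nfe2l1-212 each had the smallest p that 4 against 4 libraries can give, 0.0286, which became 0.0571 after adjustment over the 6 transcripts tested. The remaining adjusted p in this exact permutation test were 0.0686 for Nfe2l1-203 and Nfe2l1-210 and 0.171 for Nfe2l1-202. As a share of estimated counts instead of TPM, the difference of Nfe2l1-204 was 15.5 points in place of 23.5 points. WT standard libraries ranked Nfe2l1-201 and Nfe2l1-202 in the reverse order of WT ladder libraries. Their mean TPM shares there were 56.9% for Nfe2l1-201 and 12.6% for Nfe2l1-202 (n = 3). The cause of this difference between library types was not tested.

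**Figure D2:**
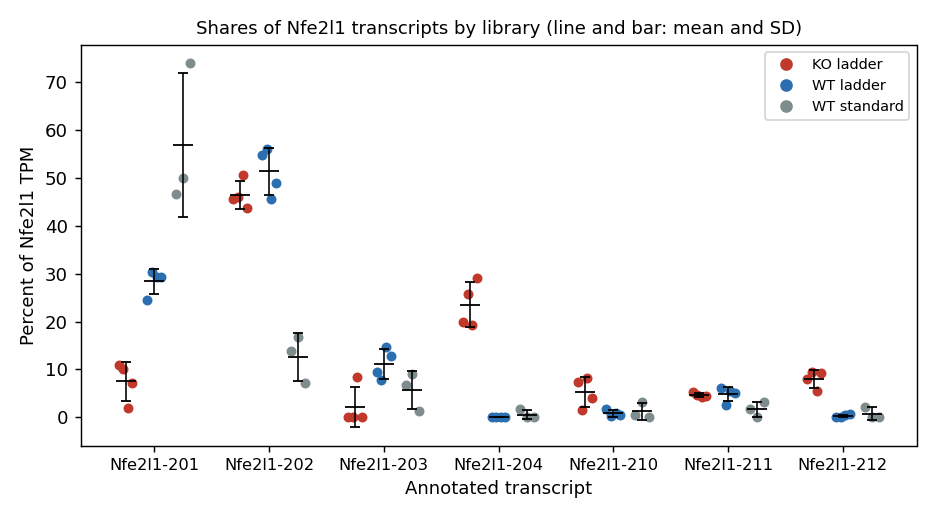
Share of the TPM of Nfe2l1 held by 7 annotated transcripts (percent, vertical axis) in 4 KO ladder, 4 WT ladder and 3 WT standard libraries, with mean and SD. Nfe2l1-204 lies between 19.2% and 28.99% in KO ladder libraries and at 0 in WT ladder libraries, and Nfe2l1-201 is lower in KO than in WT ladder libraries.

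Nfe2l1-204 differs from the other annotated transcripts by an intron of 1464 bases, chr11:96817931-96819394, which is spliced out of the terminal exon (chr11:96817414-96820516, 3103 bases). Against Nfe2l1-201 its annotation also lacks the first exon (chr11:96829819-96829968), begins at 96827719 and ends at 96817599. The intron begins with gt and ends with ag. It contains the stop codon of Nfe2l1-201 (chr11:96819176-96819178), and translation of Nfe2l1-204 runs on to a stop at chr11:96817709-96817711. The annotated coding sequences have 741 codons in Nfe2l1-201 and 742 in Nfe2l1-204, of which the last 72 of Nfe2l1-201 are replaced by 73 others. The C-terminal part of the Nfe2l1 protein holds the basic leucine zipper that binds DNA and small Maf proteins. Where this domain lies relative to the replaced codons was not examined. The 30 bases around the point where the transcripts part are shown 5′ to 3′ on the minus strand, since this junction tells Nfe2l1-204 from the others. Capitals mark the bases after the last exon base before the intron, and the first of them, G, is the same in both. They are the start of the intron in Nfe2l1-201 and the next exon in Nfe2l1-204. The 30 bases of Nfe2l1-201 are chr11:96819380-96819409.
Nfe2l1-201: ttgcttcgagaaaagGTAGAGTTCCTTCGG
Nfe2l1-204: ttgcttcgagaaaagGAAAATGAGAAGTGC

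Long reads also held this splice. In native RNA, StringTie assembled 2 Nfe2l1 transcripts from KO cells, 1 without the intron removed at 12.9 TPM and 1 with it removed at 11.9 TPM, so 48.0% of the TPM of the gene had the splice. From WT native RNA it assembled 1 transcript, at 40.2 TPM, without the splice and with the introns of Nfe2l1-201. In direct cDNA, 3 of 8 KO transcripts with 1.93 of 4.80 TPM (40.2%) had the splice, against 1 of 5 WT transcripts with 0.33 of 6.47 TPM (5.10%). The splice was therefore listed in WT cDNA too, at a lower share. A further intron of 220 bases, chr11:96827710-96827929, which no annotated Nfe2l1 transcript has, was in 3 KO cDNA transcripts with 57.7% of the TPM, in none of the KO native, WT cDNA and WT native transcripts. The FLAIR assemblies, that of KO cDNA included, do not list this intron of 220 bases. They list the terminal splice in KO cDNA and, as a fragment of 2 exons, in WT cDNA. In native RNA the FLAIR assemblies of KO and WT list the same 2 Nfe2l1 structures, both with it, and carry no abundance. Summed over transcripts, Nfe2l1 was at 24.8 TPM in KO and 40.2 TPM in WT native RNA, and at 4.80 TPM in KO and 6.47 TPM in WT cDNA. These values were lower in KO, whereas the ladder libraries gave a higher level in KO. Each long-read value is 1 pool, with no replicate error.

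**Figure D3:**
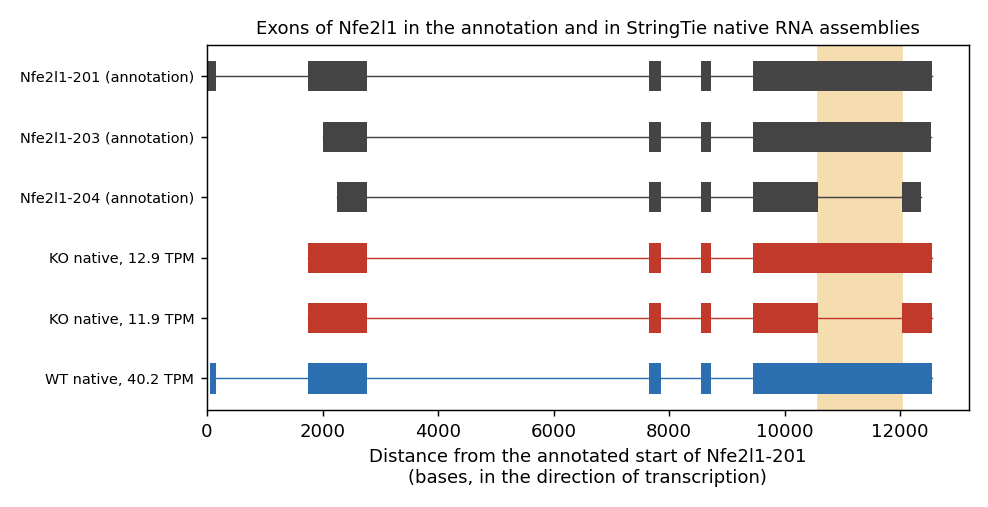
Exons (boxes) of 3 annotated Nfe2l1 transcripts and of the StringTie transcripts from native RNA of KO and WT cells, against the distance in bases from the annotated start of Nfe2l1-201. The shaded span is the 1464-base intron, absent from Nfe2l1-204 and from the KO transcript at 11.9 TPM and retained in the WT transcript at 40.2 TPM.

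The 7 alpha subunits, which form the outer rings and the gate of the core, held 1 call. Psma1 was at 99.4, 103, 89.2 and 94.3 CPM in KO libraries, against 121, 131, 105 and 110 CPM in WT libraries. Each KO library was below each WT library. The log2 fold change was -0.27 (SE 0.11, adjusted p = 0.046 in edgeR). This call was lost under 10 of 14 other settings, with adjusted p from 0.020 to 0.37 over the 14. It was lost without WT replicate 1 (0.11) or 2 (0.096) and without KO replicate 1 (0.079), 2 (0.068), 3 (0.12) or 4 (0.076). The other 6 alpha genes had log2 differences from -0.24 (Psma2) to 0.17 (Psma4), and none passed.

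None of the 7 beta subunits passed the test. Beta subunits form the inner rings, with the proteolytic sites in Psmb5, Psmb6 and Psmb7, and their differences ran from -0.28 (Psmb7) to 0.13 (Psmb3). KO replicate 4 stood apart from the other KO libraries here. Psmb4, for example, was at 332, 293, 255 and 458 CPM in KO libraries, against 421, 405, 369 and 381 CPM in WT libraries. The first 3 KO libraries were below every WT library and the fourth above. KO replicate 4 was the highest KO library for 12 of the 14 core genes and for 6 of the 20 genes of the 19S particle, and its median log2 distance from the mean of the other 3 was 0.52 in the core and -0.04 in the 19S particle.

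Without KO replicate 4, 13 of the 35 genes passed in edgeR, 3 higher and 10 lower, when 50.8% of all genes tested did. Of these, 8 had not passed with all libraries, namely Psma2, Psma7, Psmb1, Psmb2, Psmb4, Psmb7, Psmd8 and Psmd10, with log2 fold changes from -0.28 (Psmd10) to -0.43 (Psmb7). Leading transcripts of the core genes are 766 to 1435 bases long, and those of 19S genes 735 to 4397 bases. Across the 35 genes the distance of KO replicate 4 was lower for longer transcripts, on the log2 scale (Pearson r = -0.68, Spearman rho = -0.71). Across 9200 genes of 10 CPM or more the values were -0.54 and -0.66. Genes share libraries and are not independent, so these are descriptions. On CPM of the summed gene counts, without TMM and with 0.5 CPM added, the median distance of KO replicate 4 was 0.29 over all genes with a leading transcript under 1500 bases and 0.26 over the 22 proteasome genes of that length. Among genes of 3000 bases or more it was -0.30 over all and -0.31 over 3 of the 35 genes.

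Of the 6 ATPases of the base, which unfold substrates with ATP, Psmc2 rose and Psmc6 fell. Psmc2 (chr5:21785283-21803787) was at 18.6, 28.6, 34.1 and 38.7 CPM in KO libraries, against 15.5, 16.6, 13.0 and 16.7 CPM in WT libraries. KO replicate 1 was the lowest KO library and lay just above the WT range. The log2 fold change was 0.96 (SE 0.19, adjusted p = 0.0014 in edgeR) and passed under all 14 other settings. Psmc6 (chr14:45329788-45349705) was at 71.4, 72.6, 69.9 and 61.1 CPM in KO libraries, against 83.8, 94.8, 89.2 and 89.9 CPM in WT libraries, without overlap (-0.38, SE 0.10, adjusted p = 0.0066 in edgeR). It passed under 12 of 14 other settings, with an adjusted p of 0.056 without a filter and of 0.14 in limma on log2(TPM + 1). Psmc1 did not overlap either (-0.23, SE 0.10) but had an adjusted p of 0.070, and Psmc3, Psmc4 and Psmc5 differed by -0.02 to -0.09.

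The structure of Psmc2 differed between the GENCODE M21 annotation and the long reads. Its annotated coding transcript, Psmc2-201, has 13 exons and starts with an exon at chr5:21785283-21785517. The StringTie transcripts have 12 exons in all 4 assemblies and start at 21786744 in native RNA of both genotypes and at 21786730 (KO) and 21786735 (WT) in cDNA, inside the second annotated exon (chr5:21786650-21786884). They were at 174 TPM in KO and 162 TPM in WT native RNA, and at 14.6 TPM in KO and 10.9 TPM in WT cDNA. In ladder libraries Psmc2 held 15.3 ± 4.66 TPM in KO and 7.39 ± 1.53 TPM in WT (SD, n = 4 each), the lowest of the 6 ATPases, while standard WT libraries gave 101 ± 3.44 TPM (n = 3). Between 11.9% and 13.4% of ladder counts went to assembled targets with no gene named in the files, and 0.561% to 0.594% of standard counts, and reads there are in no gene's value. The sequence comes from a RefSeq promoter window of Psmc2, so RefSeq places a start of the gene near the long-read start. Its bases from upstream of the long-read start to 30 bases past it (GRCm38.p6, chr5:21786497-21786773, plus strand) are shown. They surround the start of the long-read transcripts, with capitals from the native RNA start on.
Psmc2: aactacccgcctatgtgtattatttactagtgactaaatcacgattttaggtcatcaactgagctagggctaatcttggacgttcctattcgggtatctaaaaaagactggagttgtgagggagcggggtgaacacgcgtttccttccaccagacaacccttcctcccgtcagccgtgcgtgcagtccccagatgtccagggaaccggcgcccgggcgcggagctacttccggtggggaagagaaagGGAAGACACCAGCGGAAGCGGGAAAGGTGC

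The other 3 genes of the base did not pass. Psmd1 and Psmd2 are its scaffolds, and Psmd4 is a ubiquitin receptor. Psmd1 was at 137, 141, 151 and 114 CPM in KO libraries, against 178, 186, 137 and 168 CPM in WT libraries, with WT replicate 3 inside the KO range (-0.30, SE 0.13, adjusted p = 0.068 in edgeR, 0.019 without WT replicate 3 and 0.031 with protein-coding transcripts alone). Psmd2 differed by 0.17 and Psmd4 by 0.12.

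Of the 8 lid genes, Psmd7 rose and Psmd6 fell. Psmd7 pairs with Psmd14, the deubiquitinase that removes ubiquitin chains before degradation, and Psmd6 is a scaffold of the lid. Psmd7 (chr8:107580381-107588464) was at 247, 246, 228 and 221 CPM in KO libraries, against 140, 151, 140 and 141 CPM in WT libraries. The genotypes were far apart, with a log2 fold change of 0.72 (SE 0.10, adjusted p = 7.4e-05 in edgeR), which passed under all 14 other settings.

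Psmd6 (chr14:14112174-14120984) was at 98.2, 104, 90.9 and 94.1 CPM in KO libraries, against 136, 141, 121 and 123 CPM in WT libraries. The groups did not overlap, and the log2 fold change was -0.43 (SE 0.10, adjusted p = 0.0036 in edgeR, and 0.086 in limma on log2(TPM + 1)). Psmd3 was higher in every KO library (0.27, SE 0.12, adjusted p = 0.084) and Psmd14 lower in every one (-0.22, SE 0.09, adjusted p = 0.071), and neither passed. Psmd8, Psmd11, Psmd12 and Psmd13 differed by -0.29, -0.01, 0.03 and -0.15. The assembly chaperones of the base, Psmd5, Psmd9 and Psmd10, differed by 0.15, 0.00 and -0.20 and none passed.

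Long reads gave a second view of these genes, without replicates. In native RNA, 4 of the 35 genes were over 1.5-fold higher and 4 over 1.5-fold lower in KO, or 8 in all, while 50.6% of 8492 genes of 10 TPM or more passed that fold, 24.4% higher and 26.2% lower. In cDNA, 10 were higher and 1 lower, or 11 in all, while 53.9% of 8670 genes of 1 TPM or more passed it, 36.2% higher and 17.7% lower. Over all genes the median log2 ratio of KO to WT was -0.03 in native RNA and 0.28 in cDNA, and over the 35 genes 0.02 and 0.42. Psmd7, Psma3 and Psma5 were over 1.5-fold higher in both chemistries, and none was over 1.5-fold lower in both.

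Psmd7 was at 377 TPM in KO and 139 TPM in WT native RNA, and at 40.9 TPM in KO and 16.2 TPM in WT cDNA. Its log2 ratios of 1.44 and 1.33 have the direction of the ladder libraries. Psma3 was at 443 TPM in KO and 236 TPM in WT native RNA and Psma5 at 421 and 261 TPM, while in ladder libraries they differed by -0.17 and 0.07 and did not pass. Psmc6 was at 146 TPM in KO and 207 TPM in WT native RNA but at 18.9 TPM in KO and 13.1 TPM in WT cDNA. Psmd6 was lower in KO in both (151 against 187 TPM, and 14.04 against 15.8 TPM). Psma1 was higher in KO in both, unlike in ladder libraries, at 252 TPM in KO and 220 TPM in WT native RNA and at 13.4 and 12.4 TPM in cDNA. Psmd4 had the widest cDNA ratio, with 11.7 TPM in KO and 0.969 TPM in WT, while native RNA held 172 and 157 TPM.

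**Figure D4:**
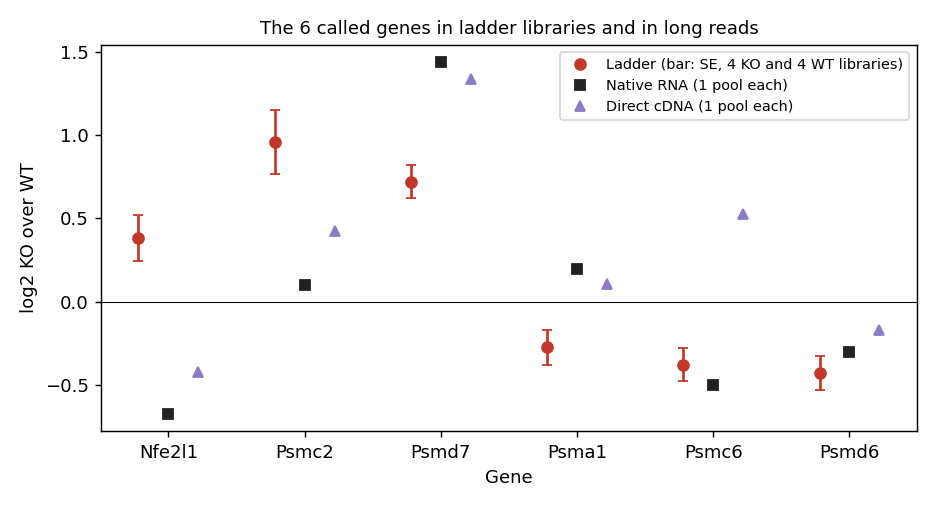
Log2 ratio of KO over WT for the 6 genes that passed the ladder test, in ladder libraries (circles, with SE), native RNA (squares) and direct cDNA (triangles, 1 pool per genotype each). Psmd7 and Psmc2 are above 0 throughout and Psmd6 is below 0 throughout. Psmc2 is at 0.96 in ladder libraries but at 0.10 in native RNA. In cDNA it is at 0.42, where the median over all genes is 0.28. Nfe2l1 is above 0 in ladder libraries and below 0 in both long-read chemistries, and Psma1 is the reverse. Psmc6 is below 0 in ladder libraries and native RNA and above 0 in cDNA.

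The 35 genes have 202 annotated transcripts, of which 135 were tested. In edgeR, 11 rose and 15 fell in KO, in 17 genes, while 35.2% of all 48272 transcripts passed, 17.3% higher and 17.9% lower. Among 44 transcripts annotated as retained introns, 11 fell and 1 rose, and their median log2 change was -0.52. Over all 9277 such transcripts tested, 25.5% fell and 6.18% rose, with a median of -0.41. Of 66 protein-coding ones 8 rose (12.1%) and 3 fell (4.55%), while 23.1% of all 28083 such transcripts rose and 15% fell. Of 8 annotated for nonsense-mediated decay 2 rose and 0 fell, while 13.6% of all 2971 rose and 14.6% fell.

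The largest falls were Psmb4-203 (-2.06), Psmb4-202 (-1.83), Psmb2-203 (-1.56), Psmd8-204 (-1.51) and Psmd2-204 (-1.06), all annotated as non-coding. Psmb4-202, the most abundant of them, was at 17.8, 8.78, 6.01 and 5.39 CPM in KO libraries, against 39.6, 40.5, 26.9 and 28.4 CPM in WT libraries, with no overlap (adjusted p = 0.0087 in edgeR). The largest rises beyond Nfe2l1 were Psmd2-206 (1.38), Psma3-206 (1.25), Psmc2-201 (1.07), Psmd11-204 (1.01) and Psmd7-201 (0.80). Psma3-206, annotated for nonsense-mediated decay, was at 59.1, 83.4, 68.3 and 112 CPM in KO libraries, against 33.0, 23.4, 38.9 and 39.8 CPM in WT libraries (adjusted p = 0.0041 in edgeR). Psmd2-204 and Psmd11-204 lost their calls under most of the leave-one-out fits, and Psmb4-203 without KO replicate 2 (0.050).

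Further lists held genes that work beside the proteasome. Of 60 such genes tested in 9 lists, 11 rose and 12 fell (38.3%), while 53.6% of all genes tested passed. Psmb8 and Psmb10, which replace core subunits in the immunoproteasome, fell by 0.43 (SE 0.16, adjusted p = 0.045 in edgeR) and 0.66 (SE 0.16, adjusted p = 0.0050), and Psmb9 at -0.15 did not pass. The call of Psmb8 was lost under 8 of 14 other settings. Psmb10 was at 107, 94.6, 87.1 and 154 CPM in KO libraries, against 174, 179, 170 and 174 CPM in WT libraries. Among 5 activators and inhibitors, Psme3, a nuclear activator of the core, rose by 0.61 (SE 0.11) and Psme4 fell by 0.52 (SE 0.16), a call lost without WT replicate 1 (0.057) or KO replicate 3 (0.053) or 4 (0.052) and in limma (0.075). Of 5 assembly chaperones Psmg3 rose by 0.55 (SE 0.15), and of 5 other 19S genes Sem1, a small lid subunit, rose by 0.72 (SE 0.18).

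Of 13 genes listed for processing and turnover of the Nfe2l1 protein, Siah2 and Ufd1 rose (1.41, SE 0.09, and 0.28, SE 0.09) and Btrc and Ngly1 fell (-0.53, SE 0.11, and -0.30, SE 0.12). Siah2, a ubiquitin ligase, was at 29.6, 33.4, 34.9 and 34.5 CPM in KO libraries, against 12.4, 12.1, 13.0 and 12.5 CPM in WT libraries. Whether Siah2 acts on the Nfe2l1 protein was not tested. The protease Ddi2 differed by 0.20 and Vcp, which pulls the protein out of the membrane, by 0.29 (adjusted p = 0.19 and 0.067 in edgeR, with Vcp at 0.024 in the DESeq2 test). Among 9 genes, Keap1 and transcription factors related to Nfe2l1, Keap1 (1.00, SE 0.16), Nfe2l2 (0.85, SE 0.12) and Bach2 (0.78, SE 0.15) rose and Nfe2l3, at 0.141 to 0.241 CPM in KO and 0.406 to 0.643 CPM in WT libraries, fell by 1.41 (SE 0.22). The calls of Ngly1 and Ufd1 were lost under 12 and 7 of 14 other settings.

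Of 8 antioxidant genes known as targets of Nfe2l2, Nqo1 rose by 1.21 (SE 0.09), and Osgin1 (-1.42, SE 0.18), Srxn1 (-1.24, SE 0.13), Slc7a11 (-1.18, SE 0.15) and Gclc (-0.46, SE 0.13) fell. Hmox1, Gclm and Txnrd1 differed by 0.01, -0.03 and -0.04 and did not pass. In limma on log2(TPM + 1), Gclm was 0.47 higher in KO and passed (adjusted p = 0.041), and the call of Gclc was lost (0.13). Of 8 genes for ubiquitin activation and delivery, Ubqln2 rose by 0.63 (SE 0.13) and Uba6 and Uba1, which activate ubiquitin, fell by 0.73 (SE 0.15) and 0.55 (SE 0.13).

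In ladder libraries, levels per length were highest in the core. In KO ladder libraries the median over alpha genes was 153 TPM and over beta genes 243 TPM, and in WT ladder libraries 129 and 223 TPM. ATPases had medians of 90.7 TPM in KO and 95.9 TPM in WT libraries and lid genes 67.5 and 68.0 TPM. The base chaperones were lowest, with medians of 16.1 TPM in KO and 17.7 TPM in WT libraries. Of the 34 subunit and chaperone genes the lowest in ladder libraries was Psmd5. The highest exceeded it by 46.8-fold in KO (Psmb6, 322 against 6.89 TPM) and 56.2-fold in WT (Psmb4, 351 against 6.23 TPM). In WT standard libraries levels ran from 13.3 TPM (Psmd10) to 319 TPM (Psma3), with Psmd5 at 41.6 TPM. Psmd10 was also the lowest in native RNA, at 34.8 TPM in KO and 39.8 TPM in WT. In native RNA the medians were 404 TPM (KO) and 266 TPM (WT) for alpha, 376 and 425 TPM for beta, 146 and 184 TPM for ATPase, 152 and 124 TPM for lid and 49.9 and 47.4 TPM for chaperone genes. In WT standard libraries they lay closer together, at 181 TPM for alpha, 191 TPM for beta, 148 TPM for ATPase, 150 TPM for lid and 37.8 TPM for chaperone genes.

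The second comparison set WT ladder libraries against WT standard libraries, over the targets that all files share. Of the 35 genes, 27 were higher and 2 lower in ladder libraries, while 61.1% of 16131 genes passed in edgeR, 30.8% higher and 30.3% lower. The median log2 ratio was 1.12 over the 35 genes and 0.00 over all genes. Groups did not overlap for 29 of the 35 genes and for 62% of all genes. All 14 core genes were higher. With all annotated targets in place of shared ones, the same counts of 27 and 2 came with a median of 0.26 over all genes and 60.5% of all calls higher, against 50.4% with shared targets. The median of the 35 genes was then 1.27, which is 1.02 above that of all genes.

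Psmb4 was at 594, 582, 546 and 535 CPM in ladder libraries, against 117, 116 and 129 CPM in standard libraries (2.22, SE 0.11, adjusted p = 4.1e-06 in edgeR). Psmb5, Psmd10 and Psmb3 followed, at 2.06, 2.05 and 2.03. Psmc2 was the one large fall, at 21.8, 23.9, 19.2 and 23.4 CPM in ladder libraries, against 103, 91.1 and 102 CPM in standard libraries (-2.16, SE 0.12, adjusted p = 5.7e-06 in edgeR). Psmd11 fell by 0.34 (SE 0.10), a call lost without standard replicate 1 (0.068) or 3 (0.060) and without a filter (0.11). Among the smaller rises, the call of Psmd2 was lost without standard replicate 2 (0.056) and that of Psmd14 without any 1 ladder library or standard replicate 2 or 3, with adjusted p from 0.052 to 0.077. Nfe2l1 differed by -0.22 (SE 0.20) and did not pass.

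The ratio of ladder to standard libraries was also lower for longer transcripts, at r = -0.69 and rho = -0.75 over the 35 genes. Over 9954 genes of 10 CPM or more the values were -0.38 and -0.51. On CPM of the summed gene counts, with 0.5 CPM added, the median log2 ratio for leading transcripts under 1500 bases was 1.12 over 1957 genes and 1.22 over 22 proteasome genes. Between 1500 and 3000 bases it was -0.09 over all and -0.02 over 10 of the 35 genes, and from 3000 bases on -0.69 over all and -0.52 over 3. Read length, pairing and depth also differ between the library types and cannot be told apart from the length separation.

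**Figure D5:**
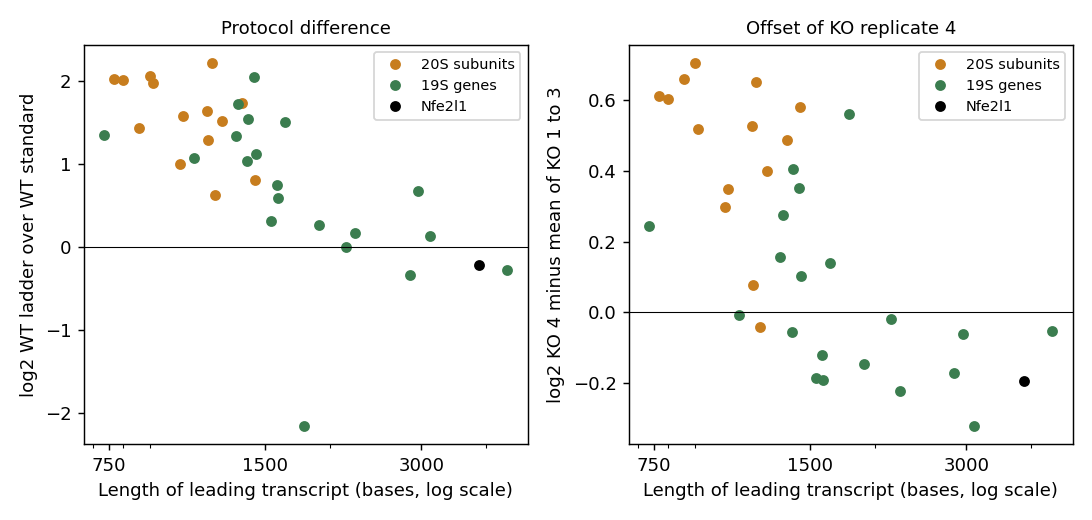
Left, log2 ratio of WT ladder over WT standard libraries for the 35 genes against the length of the leading transcript (bases, log axis). Right, log2 distance of KO replicate 4 from the mean of KO replicates 1 to 3 against the same length. Short transcripts lie higher in both panels, and Psmc2 is the low point on the left.

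Promoters were read for 29 of the 35 genes from RefSeq (GRCm38.p6), as windows of 300 bases around the start. The letters TGACNNNGC, a form of the antioxidant response element bound by the family of Nfe2l1, were searched on both strands (GCNNNGTCA on the other). They were in the window of 5 of the 29 genes (17.2%), namely Psmb5, Psmb6, Psmc6, Psmd9 and Psmd12, and in that of 13.99% of all 27025 genes, so the share is near that of all genes. Of these 5 genes Psmc6 alone passed the test between genotypes. A match is a run of letters and no evidence of binding. The first 280 of 300 bases of the windows of Psmb5 (chr14:54617966-54618245, minus strand), where the match begins 47 bases before the start, and of Psmc6 (chr14:45329574-45329853, plus strand), where it begins 227 bases before, are shown, Psmc6 because it passed and Psmb5 as a proteolytic subunit, with the match in capitals.
Psmb5: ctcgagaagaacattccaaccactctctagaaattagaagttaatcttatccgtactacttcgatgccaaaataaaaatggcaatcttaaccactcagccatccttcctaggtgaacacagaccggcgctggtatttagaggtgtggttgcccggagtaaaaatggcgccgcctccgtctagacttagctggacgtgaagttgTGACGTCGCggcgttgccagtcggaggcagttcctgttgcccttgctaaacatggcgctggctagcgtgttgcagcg
Psmc6: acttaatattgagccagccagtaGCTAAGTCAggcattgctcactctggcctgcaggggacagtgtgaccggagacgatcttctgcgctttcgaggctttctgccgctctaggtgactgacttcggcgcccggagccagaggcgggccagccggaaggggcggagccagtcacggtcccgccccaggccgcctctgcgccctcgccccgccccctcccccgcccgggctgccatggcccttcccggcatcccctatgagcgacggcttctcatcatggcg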

How the data were processed

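Per the file headers and the submitters' processing notes, the authors quantified transcripts with kallisto (version not stated). The deposited estimated counts are not whole, and the deposited TPM sum to the same total in each file. STAR 2.5.4b, StringTie and minimap2 2.17 are also listed by the submitters' processing notes, and the long-read structures come, per the file headers, from StringTie 2.0 and, without abundance, from FLAIR.

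Estimated counts were summed per gene of GENCODE M21 (GRCm38), rounded, kept by filterByExpr, scaled by TMM and tested with edgeR 4.0.16 in R 4.3.3 (quasi-likelihood, robust, Benjamini-Hochberg, threshold 0.05). CPM are scaled to library totals with TMM, except for Mettl14 and marker sums, which use the totals alone. For ladder against standard libraries, counts, totals and TMM cover the shared targets alone. The CPM of a WT ladder library there therefore differ from its CPM between genotypes. Transcripts were fitted in the same way, and a share was tested for transcripts of 5% or more in either genotype. Long-read gene levels sum the TPM of StringTie transcripts that hold an annotated intron of the gene, with pseudocounts of 1 TPM (native) and 0.1 TPM (cDNA) in ratios. The leading transcript of a gene has the highest mean TPM in WT ladder libraries. In correlations with length, 0.5 CPM was added over all genes. DESeq2 1.42.0 and limma 3.58.1 (on log2(TPM + 1)) served as alternatives. Checks on simulated counts preceded the fits.

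The members, lists and tests were chosen with earlier results of these data known. Values in every library are given for Nfe2l1 and, in each role, for up to 3 members with the largest change in each direction past the threshold, and up to 3 genes per direction of a neighbouring list, 5 other transcripts per direction and 4 genes per direction between library types are named. Per-library values of Psmb4, Psmd1 and of single neighbouring genes and transcripts were added after their values were seen, as were the settings for the 60 neighbouring genes. Estimated counts are split between near-identical copies, and 4 annotated pseudogenes are named after Psmb5, Psmb6 and Psmb7. Psma8 and Psmb11 fell below the filter and Paaf1 had no match by symbol. The result of 1 neighbouring list is not reported here.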

Additional observations from a re-analysis of the deposited data

Results flagged for a closer look

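Of 81 groups of 4 libraries examined (35 genes and the larger Nfe2l1 transcript shares, in KO and WT ladder libraries), 2 held a library far from the other 3, where chance gives about 1 in 20. WT replicate 2 was the highest WT library for Psmd7, at 151 CPM against 140 to 141 CPM in the other WT libraries, a gap of 0.87 of the range, and it was still below all KO libraries. KO replicate 3 held 8.43% of the Nfe2l1 TPM in Nfe2l1-203, against 0 to 0.000125% in the other KO libraries, a gap of 1.00 of the range, and the test of that transcript changed with this library as given above.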

How the results depend on the processing

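Of the 35 genes, 6 passed between genotypes, as did 53.6% of all genes tested. Without KO replicate 4 the number was 13 (50.8% of all genes). Over the fits that left out 1 library it was 4 to 13 (47% to 52.5%). It was 3, all higher, in limma on log2(TPM + 1) (42.7%). With DESeq2 size factors it was 5 (53.7%) and without a filter 4 (27.8%). The DESeq2 test gave 6 (53.5%) and protein-coding transcripts alone 9 (55.3%). Of their transcripts 26 passed (35.2% of all transcripts), 16 without a filter (13.8%) and 31 in the DESeq2 test (37.6%). Over the leave-one-out fits 17 to 24 passed (27% to 30.8%), with 17 without WT replicate 2. The count for ladder against standard libraries stayed between 26 and 29, with 40.1% to 67.7% of all genes. That of the 60 neighbouring genes stayed between 19 and 24 (27.8% to 55.3% of all genes), in settings chosen after the data were seen. With protein-coding transcripts alone, Psmc1, Psmd1, Psmd8 and Psmd14 passed and Nfe2l1 did not. Among the genes and transcripts named, Gclm was the one whose direction differed past the threshold, at 0.47 (adjusted p = 0.041) in limma on log2(TPM + 1) against -0.03 in edgeR, and the cause was not tested.

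The labels do not say whether replicate numbers pair the samples. Same-numbered KO and WT libraries had correlations of deviations of -0.01, 0.05, -0.02 and 0.04, and same-numbered ladder and standard libraries 0.01, -0.02 and 0.06. Not every library correlated best with its own number. With so few libraries per group, these values cannot show whether the samples were paired. With the replicate number as a block, 5 genes and 19 transcripts passed between genotypes (53.2% of all genes and 28.4% of all transcripts). Between library types 26 genes passed, 25 higher and 1 lower, and 49.8% of all genes did, in a fit that drops WT ladder replicate 4. There the calls of Psmd2, Psmd11 and Psmd14 were lost, at 0.062, 0.070 and 0.11 in edgeR. The usage test of Nfe2l1 with this block gave an adjusted p of 2.1e-06 in edgeR. Long-read values have no replicates, and estimated counts of overlapping transcripts depend on the quantifier.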
